A study of Homo sapiens with 6 samples.

Results

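The genes described here are 46 heat shock proteins, chaperonins and their partners, chosen by symbol and not by any measured value. They comprise the Hsp70 and Hsp110 proteins, Hsp90 and its co-chaperones, small heat shock proteins, J proteins, BAG nucleotide exchange factors, subunits of the TRiC chaperonin, a few mitochondrial chaperones and the heat shock factors HSF1 and HSF2. For each gene, the transcript cluster (the array's unit of expression) with the highest mean over the 6 arrays was used, out of 67528 clusters on the array. A cluster was found for 44 of the 46 genes. Of these, 41 had a cluster that carries their symbol alone, with HSPB11 under its present symbol IFT25. The other 3 lay only in clusters that carry further symbols. These were HSPA8 (with the small nucleolar RNAs SNORD14C and SNORD14D of its introns), TCP1 (with SNORA29) and HSPA1B (with its near-identical copy HSPA1A), and their values are called those of the cluster. AHSA1 and HSF2 were not analysed here. The name of cytosolic heat shock proteins does not cover all 46, as HSPA9, HSPD1, HSPE1, TRAP1 and DNAJA3 encode mitochondrial proteins, HSF1 and HSF2 encode transcription factors, and HSPB11 encodes a subunit of the cilium transport machinery.

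The cells were SCC25, an established line of human tongue squamous cell carcinoma. There were 3 arrays of cells exposed to tunicamycin (TM) at 5 µg/ml for 6 h and 3 arrays of control cells exposed to DMSO at 0.1% for the same time. The comparison addresses how the transcriptome of these cells responds to stress of the endoplasmic reticulum (ER). The titles of the TM samples give SCC25, but SCC28 stands in another of their label fields. Total RNA of whole cultures was hybridised to the HTA 2.0 array, and the values are log2 expression. Fewer cells expressing a gene and less RNA per cell cannot be told apart in such data.

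Heat shock proteins bind unfolded polypeptides in the cytosol and nucleus, and they keep them soluble until they fold or are degraded. Hsp70 proteins bind and release clients in a cycle that J proteins start and that BAG and Hsp110 proteins reset, Hsp90 receives some of these clients, and TRiC encloses actin, tubulin and others in a chamber. Many of these genes are driven by HSF1, which binds heat shock elements in their promoters when unfolded protein builds up in the cytosol. TM blocks N-glycosylation, so that unfolded protein builds up in the ER, whose own chaperones are driven by other factors of the unfolded protein response.

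The squamous markers measured were KRT5 (13.1 to 13.2 over the 6 arrays), KRT14, SFN, CDH1 and EPCAM. None of the 13 measured markers of fibroblasts, leukocytes and endothelium, nor these 5, passed the adjusted threshold in either comparison below. Over all 6 arrays no cluster of the array passed, and not passing does not tell whether such cells were present. All 4 endothelial and 3 of 5 fibroblast markers were higher in TM with no overlap between groups, beside 20.5% of all clusters. Of the fibroblast markers 1 was lower without overlap, beside 7.49% of all clusters. The median of the array was 5.49 to 5.52 in TM arrays and 5.39 to 5.48 in control arrays. The arrays labelled TM 3 and control 3 stood apart from their groups. HSPA5, the ER Hsp70 that TM is known to induce, had log2 values of 13.42, 13.31 and 12.27 in TM 1, 2 and 3, against 12.39, 12.27 and 13.51 in control 1, 2 and 3. Thus TM 3 lay at the level of control 1 and 2, and control 3 lay at the level of TM 1 and 2. All 14 ER chaperone genes measured for comparison had both replicate 3 arrays nearer to the other group. The groups here follow the labels throughout. The counts and the genes that fell are given over all 6 arrays and over replicates 1 and 2, that is 2 TM and 2 control arrays. Replicate 3 was left out of the second comparison because of its values in these same data. The p values of that comparison follow this choice and do not hold their nominal meaning. For other genes, a log2 fold change with no comparison named beside it is from replicates 1 and 2. None of these genes passed over all 6 arrays.

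Promoter stretches are shown here because heat shock elements are the sites through which HSF1 is known to act on these genes, and because genes that fell in TM and genes that did not pass can be compared by them. They are RefSeq windows of GRCh38.p14, each written 5′ to 3′ on the strand of the gene and ending before the annotated start. Capitals mark a heat shock element. In HSPA1A, HSPA1B and DNAJB1 it is an element of 2 units (GAANNTTC or TTCNNGAA), and in HSPA8, HSP90AA1, CHORDC1, HSPA6 and DNAJB6 it is a run of 3 units (GAANNTTCNNGAA or TTCNNGAANNTTC), with other elements of 2 units left in lower case. HSPA5 is shown as the ER counterpart, with its ER stress response element I (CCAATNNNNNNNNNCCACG) in capitals. HSPA1A lies at chr6:31815391-31815490 (+), HSPA1B at chr6:31827587-31827686 (+), HSPA8 at chr11:123062137-123062236 (-), HSP90AA1 at chr14:102087077-102087176 (-), CHORDC1 at chr11:90223050-90223149 (-), DNAJB1 at chr19:14518398-14518497 (-), HSPA6 at chr1:161524422-161524521 (+), DNAJB6 at chr7:157336829-157336928 (+) and HSPA5 at chr9:125241351-125241450 (-).
HSPA1A: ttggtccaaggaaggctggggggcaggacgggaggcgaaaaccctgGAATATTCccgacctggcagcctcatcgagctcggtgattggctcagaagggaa
HSPA1B: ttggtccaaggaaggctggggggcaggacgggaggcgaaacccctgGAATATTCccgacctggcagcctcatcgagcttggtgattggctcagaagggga
HSPA8: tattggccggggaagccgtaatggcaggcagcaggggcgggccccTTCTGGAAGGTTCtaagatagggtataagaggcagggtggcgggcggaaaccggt
HSP90AA1: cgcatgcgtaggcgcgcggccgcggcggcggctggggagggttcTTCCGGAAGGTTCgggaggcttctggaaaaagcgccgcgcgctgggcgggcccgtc
CHORDC1: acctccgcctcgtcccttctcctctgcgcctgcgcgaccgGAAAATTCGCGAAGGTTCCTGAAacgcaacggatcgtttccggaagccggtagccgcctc
DNAJB1: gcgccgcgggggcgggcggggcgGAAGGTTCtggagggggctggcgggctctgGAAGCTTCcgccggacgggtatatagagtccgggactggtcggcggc
HSPA6: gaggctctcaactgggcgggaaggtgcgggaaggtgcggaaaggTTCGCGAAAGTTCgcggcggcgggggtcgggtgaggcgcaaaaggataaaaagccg
DNAJB6: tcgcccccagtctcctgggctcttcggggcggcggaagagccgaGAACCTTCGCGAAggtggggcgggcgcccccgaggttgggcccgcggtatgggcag
HSPA5: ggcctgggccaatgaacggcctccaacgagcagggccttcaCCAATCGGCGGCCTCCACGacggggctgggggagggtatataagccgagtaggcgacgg

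The elements of HSPA1A and HSPA1B are the same 8 bases, 106 to 99 bases before the HSPA1A start and 105 to 98 before the HSPA1B start. The HSPA1A element, at chr6:31815437-31815444, also lies in the window of HSPA1L, a neighbour read from the other strand, 161 to 154 bases before its start. In CHORDC1, 3 runs of 3 units overlap between 60 and 38 bases before the start. HSPA8 has a run 55 to 43 bases before its start and a second 230 to 218 bases before it.

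Over all 6 arrays, none of the 44 genes passed the adjusted threshold of 0.05 in limma. No cluster of the array did so in either direction (0.0% of 67528), although 13824 had an unadjusted p under 0.05. Without adjustment, 8 members had a p under 0.05, of which HSPA6 was higher in TM and 7 were lower, beside 15.3% of all clusters higher and 5.14% lower. When a change of 1.2-fold or more was asked for as well, CHORDC1 was the one member left, with a lower value in TM, beside 1.68% of all clusters lower and 4.24% higher. The members' median log2 fold change (TM minus control) was -0.13, against 0.04 for all clusters. Centring the arrays on their medians turned the split of all clusters at these thresholds to 994 higher and 3272 lower, from 2863 higher and 1133 lower as deposited, and gave 4 members.

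The p values of replicates 1 and 2 follow a choice of arrays made on their values. In this comparison, 9 of the 44 members fell in TM (20.5%) and 0 rose at an adjusted p under 0.05. They were HSPA1A, the HSPA1B cluster, HSPA2, the HSPA8 cluster, CHORDC1, HSPE1, DNAJA1, DNAJB1 and DNAJB4. Among all clusters, 0.675% were lower and 0.546% higher at this threshold. Counting clusters that carry 1 symbol only, 7 of 41 members fell, beside 0.45% of such clusters lower and 0.854% higher. At an unadjusted p under 0.05, 27 were lower and 3, HSPA9, DNAJB5 and HSF1, were higher, beside 12.1% of all clusters lower and 14.8% higher. The members' median log2 fold change was -0.20, against 0.04 for all clusters, and 35 of 44 were below 0, beside 41.3% of all clusters. With a p under 0.05 before adjustment and a 1.2-fold change or more, 16 members were lower and 1 was higher, beside 7.6% of all clusters lower and 6.96% higher. With quantile normalization 6 of the 9 remained, and CHORDC1, DNAJA1 and DNAJB1 did not pass. No cluster of the array passed without TM 1 or without TM 2, which leaves 1 TM array, and HSPA1A and the HSPA1B cluster were the members called without control 1 or without control 2. The log2 fold changes of the 9 then lay between -1.43 and -0.48. Array centring changed the split over all clusters to 563 higher and 1309 lower, from 369 higher and 456 lower, and gave 13 members lower and 1 higher. At the 1.2-fold rule it gave 3142 higher and 6704 lower clusters, from 4699 and 5129.

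**Figure D1:**
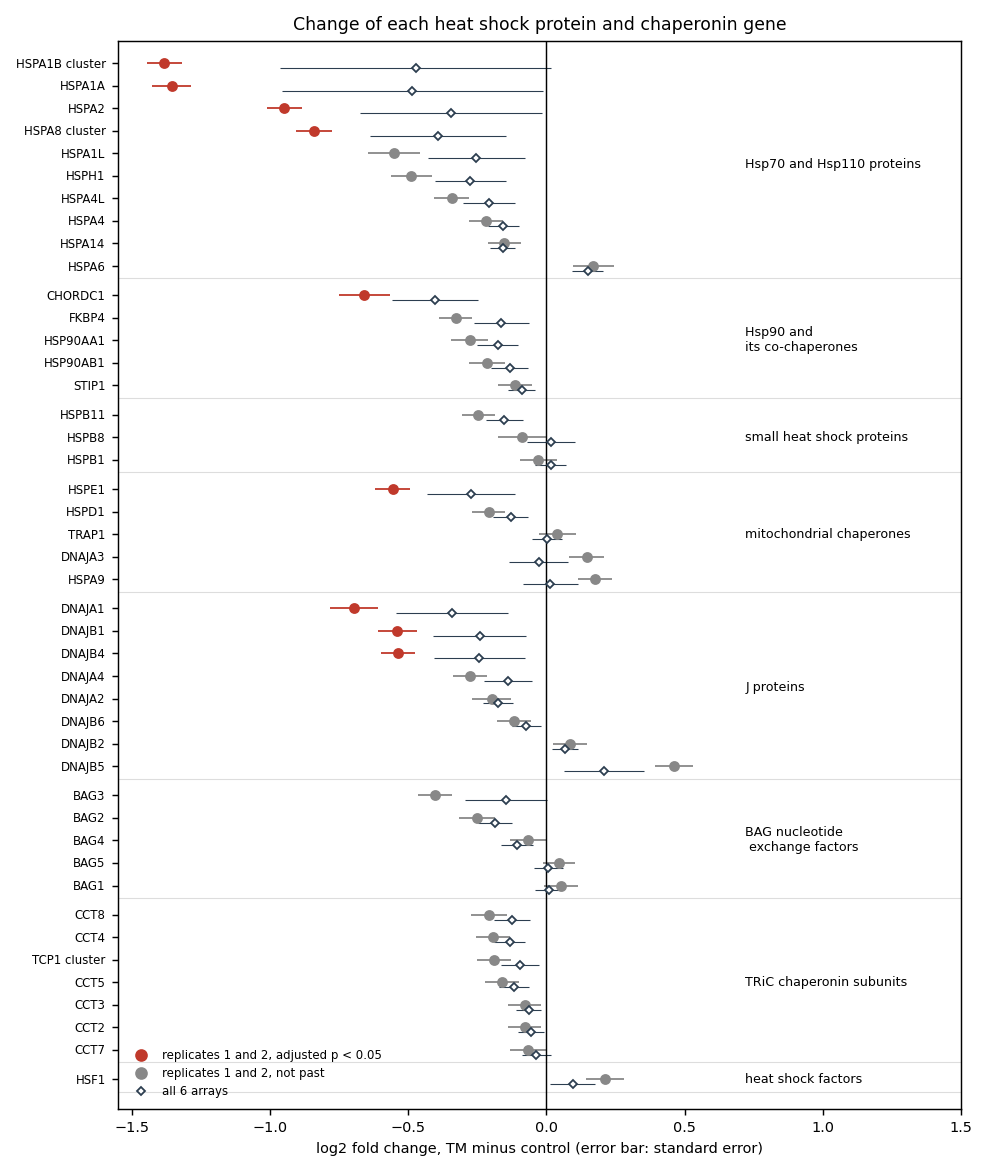
Log2 fold change (TM minus control, x axis) of the 44 measured genes by role, with filled circles for replicates 1 and 2 (red: adjusted p under 0.05) and open diamonds for all 6 arrays, and bars for the standard error. The 9 red circles lie between -1.38 and -0.54, and the diamonds of HSPA1A and the HSPA1B cluster have the widest bars.

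The Hsp70 genes held the lowest changes. HSPA1A, the classical stress-inducible Hsp70, had log2 values of 9.27, 9.15 and 10.50 in TM 1, 2 and 3, against 10.60, 10.54 and 9.25 in control 1, 2 and 3. TM 1, TM 2 and control 3 were low and the other three arrays were high, so that the groups overlapped. In replicates 1 and 2 it fell 2.56-fold in TM (log2 fold change -1.36 ± 0.07 SE, adjusted p = 0.00903), the 5th lowest change of the 23781 clusters with 1 symbol. These clusters include 4 of HSPA1A itself, so a rank among them can count a gene more than once. Over 6 arrays the HSPA1A mean was 9.64 ± 0.75 in TM and 10.13 ± 0.76 in control (SD, n = 3 each), with a log2 fold change of -0.48 ± 0.47 (SE, adjusted p = 0.58). In replicate 3 the difference was 1.26, of the opposite sign.

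The HSPA1A cluster used belongs to an alternative haplotype. The 4 clusters that carry HSPA1A alone differed little, with differences between -1.37 and -1.35 in replicates 1 and 2. The 6 clusters shared by HSPA1A and HSPA1B gave -1.79 to -1.38, and none of them separates the 2 copies. The one used for HSPA1B had 9.65, 9.57 and 10.98 in TM 1, 2 and 3, against 10.99, 10.996 and 9.63 in control 1, 2 and 3 (log2 fold change -1.38 ± 0.06 SE in replicates 1 and 2, adjusted p = 0.00832, and -0.47 ± 0.49 SE over 6 arrays, adjusted p = 0.606). As for HSPA1A, TM 1, TM 2 and control 3 were the low arrays. HSPA1L, the third gene of this locus, had a log2 fold change of -0.55 ± 0.09 and did not pass (adjusted p = 0.0588). Its 5 clusters gave -0.55 to -0.47. It passed with the mean of its clusters, array centring, trend and robust options, or the upper part of clusters by mean. With quantile normalization or the replicate block it did not.

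HSPA8 encodes the constitutive Hsp70 of the cytosol, Hsc70. Its cluster had 11.52, 11.43 and 12.15 in TM 1, 2 and 3, against 12.33, 12.32 and 11.65 in control 1, 2 and 3. It fell 1.79-fold in replicates 1 and 2 (-0.84 ± 0.06 SE, adjusted p = 0.0204), while over 6 arrays it averaged 11.70 ± 0.39 in TM and 12.10 ± 0.39 in control (SD, n = 3 each, adjusted p = 0.395). The cluster also carries SNORD14C and SNORD14D, so its change cannot be given to HSPA8 alone. HSPA2, an Hsp70 best known from the testis, had 8.57, 8.57 and 9.58 in TM arrays, against 9.56, 9.48 and 8.72 in control arrays. It fell 1.93-fold in replicates 1 and 2 (-0.95 ± 0.06 SE, adjusted p = 0.0156), the 26th lowest change among clusters with 1 symbol, while over 6 arrays the log2 fold change was -0.34 ± 0.33 (SE, adjusted p = 0.574). In both genes TM 3 and control 3 again lay with the other group.

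The Hsp110 proteins, which exchange the nucleotide of Hsp70, showed smaller differences in replicates 1 and 2. HSPH1 had a log2 fold change of -0.49 ± 0.07 (SE, adjusted p = 0.0526), HSPA4L of -0.34 ± 0.06 (adjusted p = 0.066) and HSPA4 of -0.22 ± 0.06 (adjusted p = 0.109). None of these passed. HSPA14, an Hsp70 that works at the ribosome, had 7.48, 7.48 and 7.50 in TM arrays, against 7.62, 7.65 and 7.67 in control arrays. All 3 TM arrays lay below all 3 control arrays, including replicate 3, with an adjusted p of 0.16 over 6 arrays. HSPA6, an Hsp70 that in human cells is nearly silent without stress, had 7.64, 7.67 and 7.62 in TM arrays, against 7.41, 7.56 and 7.52 in control arrays. It was the one cytosolic Hsp70 gene with a positive value and its groups did not overlap, but it did not pass over 6 arrays (0.15 ± 0.06 SE, adjusted p = 0.211) or in replicates 1 and 2 (adjusted p = 0.212).

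**Figure D2:**
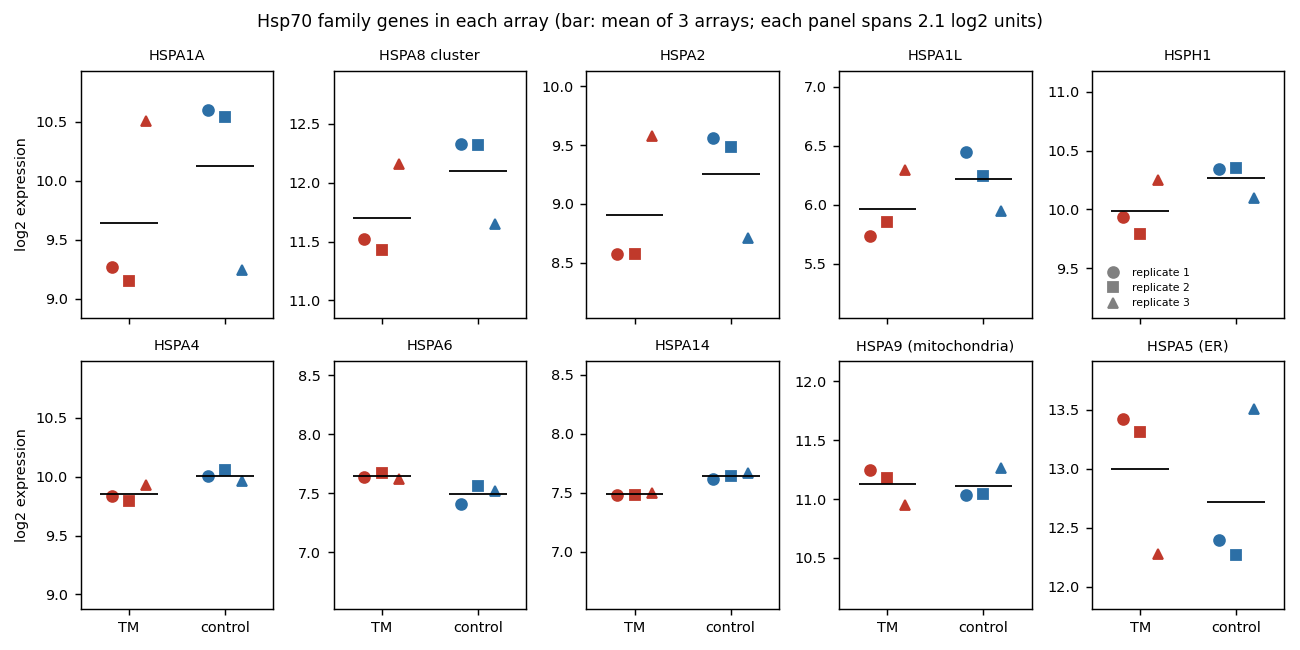
Log2 expression of 8 cytosolic Hsp70 family genes, the mitochondrial HSPA9 and the ER HSPA5 in each array, with TM left of control, a symbol for each replicate number and a bar for the mean of 3 arrays. In HSPA1A, HSPA2 and the HSPA8 cluster the triangle of TM 3 lies near control 1 and 2 and that of control 3 near TM 1 and 2, and HSPA5 shows the same pattern with the opposite sign.

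Among Hsp90 genes, the co-chaperone CHORDC1 moved most. It had 7.55, 7.33 and 7.91 in TM 1, 2 and 3, against 8.07, 8.13 and 7.80 in control 1, 2 and 3. TM 1 and TM 2 were the lowest arrays, and only TM 3 and control 3 crossed. CHORDC1 fell 1.58-fold in replicates 1 and 2 (-0.66 ± 0.09 SE, adjusted p = 0.0497), just inside the threshold, and had the lowest log2 fold change of the Hsp90 genes over 6 arrays (-0.40 ± 0.16 SE, unadjusted p = 0.0359, adjusted p = 0.218). HSP90AA1, the inducible Hsp90, had 11.57, 11.47 and 11.69 in TM arrays, against 11.79, 11.81 and 11.66 in control arrays. Here TM 3 alone reached above a control array, and the log2 fold change was -0.28 ± 0.07 in replicates 1 and 2 (adjusted p = 0.0857). The constitutive HSP90AB1 had -0.22 ± 0.07 (adjusted p = 0.124). The immunophilin FKBP4 had -0.33 ± 0.06 (adjusted p = 0.0653), and STIP1, which joins Hsp70 to Hsp90, had -0.11 ± 0.06 (adjusted p = 0.282). Thus 1 of the 5 measured Hsp90 genes fell in replicates 1 and 2 and 4 did not pass, beside 0.675% of all clusters lower.

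Of the 8 measured J proteins, 3 were among the 9 that fell, beside 0.675% of all clusters lower. DNAJA1, a main partner of Hsc70, had 9.24, 9.02 and 9.69 in TM 1, 2 and 3, against 9.83, 9.82 and 9.32 in control 1, 2 and 3, and fell 1.62-fold in replicates 1 and 2 (-0.70 ± 0.09 SE, adjusted p = 0.0436). DNAJB1, the stress-inducible Hsp40, had 9.25, 9.13 and 9.66 in TM arrays, against 9.73, 9.73 and 9.31 in control arrays, and fell 1.45-fold (-0.54 ± 0.07 SE, adjusted p = 0.0455). DNAJB4, a close relative of DNAJB1, had 6.96, 6.90 and 7.42 in TM arrays, against 7.48, 7.46 and 7.08 in control arrays, and also fell 1.45-fold (-0.54 ± 0.06 SE, adjusted p = 0.0371). In all 3 genes the groups overlapped through replicate 3 alone, and over 6 arrays the adjusted p was 0.368, 0.443 and 0.431 for DNAJA1, DNAJB1 and DNAJB4.

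DNAJB5, another relative of DNAJB1, had values in the opposite direction, with 7.46, 7.54 and 7.09 in TM arrays, against 7.08, 6.997 and 7.38 in control arrays. Its log2 fold change of 0.46 ± 0.07 in replicates 1 and 2 lay just outside the threshold (adjusted p = 0.0526). DNAJA2 had 9.24, 9.11 and 9.24 in TM arrays, against 9.37, 9.38 and 9.38 in control arrays. Its 3 TM arrays lay below all control arrays, with a log2 fold change of -0.18 ± 0.05 over 6 arrays (adjusted p = 0.173). DNAJA4, DNAJB6 and DNAJB2 had -0.28, -0.12 and 0.09 in replicates 1 and 2 and did not pass.

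The mitochondrial chaperones did not move as one. HSPE1, the Hsp10 lid of the mitochondrial chaperonin, had 6.92, 6.85 and 7.28 in TM 1, 2 and 3, against 7.46, 7.43 and 6.99 in control 1, 2 and 3, and fell 1.47-fold in replicates 1 and 2 (-0.56 ± 0.06 SE, adjusted p = 0.0371). Over 6 arrays its log2 fold change was -0.27 ± 0.16 (SE, adjusted p = 0.366). Its partner HSPD1 (Hsp60) had 9.28, 9.25 and 9.34 in TM arrays, against 9.47, 9.48 and 9.31 in control arrays. TM 1 and TM 2 were the lowest, and its log2 fold change of -0.21 ± 0.06 did not pass (adjusted p = 0.109). HSPA9, the mitochondrial Hsp70, had 11.25, 11.18 and 10.95 in TM arrays, against 11.03, 11.04 and 11.26 in control arrays, a log2 fold change of 0.18 ± 0.06 in replicates 1 and 2 (adjusted p = 0.156). Its replicate 3 arrays also lay with the other group, while its difference had the sign of the ER chaperones. DNAJA3 and TRAP1 had 0.15 and 0.04 in replicates 1 and 2, and DNAJA3 had -0.03 over 6 arrays.

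No small heat shock protein and no BAG protein passed. HSPB1 (Hsp27), an abundant chaperone of epithelial cells, had 10.79, 10.81 and 10.89 in TM arrays, against 10.89, 10.77 and 10.79 in control arrays, with a log2 fold change of -0.03 ± 0.07 in replicates 1 and 2 (adjusted p = 0.808). Its 6 values thus spanned about as much within each group as between them. HSPB8 had -0.09 ± 0.09 in replicates 1 and 2 and 0.02 over 6 arrays. HSPB11 had 6.74, 6.74 and 6.89 in TM arrays, against 6.97, 7.01 and 6.85 in control arrays (-0.25 ± 0.06 SE in replicates 1 and 2, adjusted p = 0.0876).

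BAG3, an HSF1 target that hands clients of HSPB8 to autophagy, had 9.24, 9.29 and 9.71 in TM arrays, against 9.69, 9.65 and 9.34 in control arrays. TM 1, TM 2 and control 3 were the low arrays, as for HSPA1A, and the log2 fold change of -0.40 ± 0.06 lay just outside the threshold (adjusted p = 0.0537). BAG2 had 8.98, 8.99 and 9.12 in TM arrays, against 9.28, 9.19 and 9.18 in control arrays, with no overlap between the groups (-0.19 ± 0.06 SE over 6 arrays, adjusted p = 0.183). BAG1 had 6.25, 6.24 and 6.20 in TM arrays, against 6.22, 6.17 and 6.28 in control arrays (0.05 ± 0.06 SE in replicates 1 and 2, adjusted p = 0.611). BAG4 and BAG5 had -0.07 and 0.05.

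The 7 TRiC subunits among the members had small differences in 1 direction. All 7 had a log2 fold change below 0 in both comparisons, between -0.21 and -0.07 in replicates 1 and 2, and none passed the adjusted threshold. The further subunits CCT6A and CCT6B are counted below with the TRiC partners. They had -0.18 ± 0.07 and 0.12 ± 0.07 (SE) in replicates 1 and 2, and neither passed. CCT8 had 9.90, 9.83 and 10.00 in TM arrays, against 10.04, 10.11 and 9.96 in control arrays (-0.21 ± 0.07 SE in replicates 1 and 2, adjusted p = 0.127). CCT4 had 10.59, 10.63 and 10.70 in TM arrays, against 10.83, 10.78 and 10.71 in control arrays, with no overlap between the groups by a gap at the second decimal (-0.13 ± 0.06 SE over 6 arrays, adjusted p = 0.244). The median log2 fold change of the 7 in replicates 1 and 2 was -0.16, and 4 of the 7 had an unadjusted p under 0.05, beside 12.1% of all clusters lower at that p and 41.3% lower at any size.

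HSF1, the factor that drives the heat shock genes, had 8.87, 8.96 and 8.74 in TM arrays, against 8.75, 8.66 and 8.88 in control arrays. TM 1, TM 2 and control 3 were the high arrays, and the log2 fold change of 0.21 ± 0.07 in replicates 1 and 2 did not pass (adjusted p = 0.139). Of 10 measured genes of a list of further HSF family members and targets, 2 rose in replicates 1 and 2 and 0 fell. Beside this, 0.546% of all clusters were higher and 0.675% lower. The 2 that rose were HSPA13, an Hsp70 of the microsomes (0.73 ± 0.06 SE, adjusted p = 0.0242), and ZFAND2A, a partner of the proteasome known from arsenite stress (0.61 ± 0.07 SE, adjusted p = 0.0367). In replicate 3 the differences of HSPA13 and ZFAND2A were -0.99 and -0.72, of the opposite sign. Over 6 arrays their adjusted p was 0.80 and 0.72. CACYBP and HSBP1, which binds HSF1, had -0.38 ± 0.06 (adjusted p = 0.0548) and -0.25 ± 0.06 (adjusted p = 0.0924). The median of the 10 was 0.01. At an unadjusted p under 0.05, 3 were higher and 2 lower, beside 14.8% of all clusters higher and 12.1% lower.

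**Figure D3:**
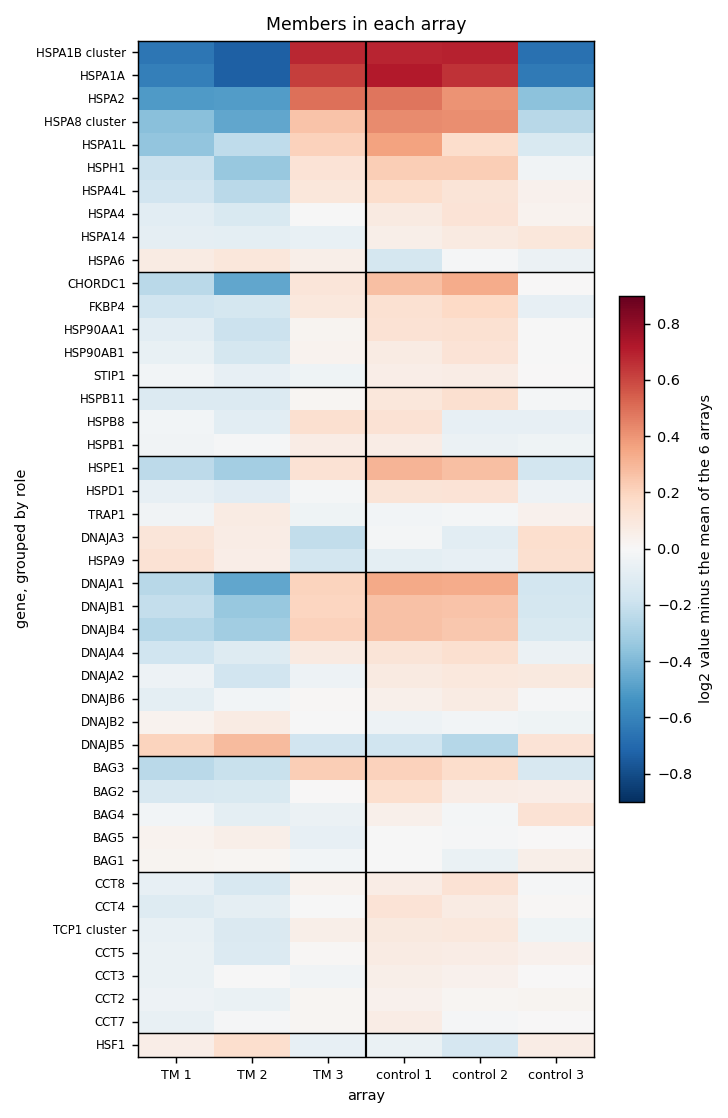
Log2 value minus the gene's mean over the 6 arrays (colour scale), for each of the 44 genes by role (down) and array (across, TM left of control). TM 1, TM 2 and control 3 are low for most Hsp70 and J protein genes, while TM 3, control 1 and control 2 are high.

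Other chaperone partners did not pass in either comparison. Of 20 measured co-chaperones of Hsp90 and Hsp70, 0 passed the adjusted threshold in replicates 1 and 2 (median log2 fold change -0.03). The lowest p belonged to FKBP5, an immunophilin of steroid receptors, with -0.53 ± 0.08 (SE, adjusted p = 0.0507), and DNAJC8, a J protein tied to splicing, with -0.26 ± 0.06 (adjusted p = 0.0833). HSPB6 and HSPB7 had 0.19 and 0.16. Of 14 measured TRiC partners and prefoldin subunits, 0 passed (median -0.02), where the tubulin cofactor TBCA had -0.30, the prefoldin subunit VBP1 -0.21, and the tubulin cofactors TBCC and TBCB 0.16 and 0.15. Of 12 measured mitochondrial proteostasis genes, 0 passed (median 0.03), with values of 0.40 ± 0.07 for GRPEL2, an exchange factor of HSPA9 (adjusted p = 0.0589), 0.26 ± 0.06 for the protease LONP1 (adjusted p = 0.0842), and -0.11 and -0.08 for CLPX and YME1L1. At an unadjusted p under 0.05 in replicates 1 and 2, 5 of the 20 co-chaperones were lower and 1 higher, 3 of the 14 TRiC partners were lower and 0 higher, and 2 of the 12 mitochondrial genes were higher and 0 lower, beside 12.1% of all clusters lower and 14.8% higher.

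The ER chaperones gave the opposite sign. Of 14 measured, 10 rose in TM in replicates 1 and 2 and 0 fell, beside 0.546% of all clusters higher and 0.675% lower. At an unadjusted p under 0.05, 12 were higher and 0 lower, beside 14.8% of all clusters higher and 12.1% lower. The median log2 fold change of the 14 was 0.93. Over all 6 arrays 0 of the 14 passed in limma, 0 had an unadjusted p under 0.05, and the median was 0.29. PDIA4, a disulfide isomerase, had 10.89, 10.81 and 9.41 in TM arrays, against 9.38, 9.39 and 10.84 in control arrays (1.46 ± 0.06 SE in replicates 1 and 2, adjusted p = 0.0079). HYOU1, the Hsp110 of the ER, had 1.11 ± 0.06 (adjusted p = 0.0122), beside -0.49 for its cytosolic relative HSPH1. Likewise HSPA5 had 1.04 ± 0.08 (adjusted p = 0.0187), beside -0.84 for the HSPA8 cluster. The difference between the lists itself was not tested.

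The position of the replicate 3 arrays varied among these genes. Both replicate 3 arrays lay nearer to replicates 1 and 2 of the other group in 25 of the 44 members, beside 25.9% of all clusters. Among the 9 that fell it was 8, with CHORDC1 as the exception, because its control 3 value was nearer to the other controls. Of the 825 clusters of the array past the adjusted threshold in either direction, 65.5% had it. The difference between TM 3 and control 3 was 1.26 for HSPA1A, 0.86 for HSPA2, 0.51 for the HSPA8 cluster, 0.37 for DNAJA1 and 0.11 for CHORDC1, and -1.43 for PDIA4. An exchange of these 2 arrays is not stated in the labels and was not tested.

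**Figure D4:**
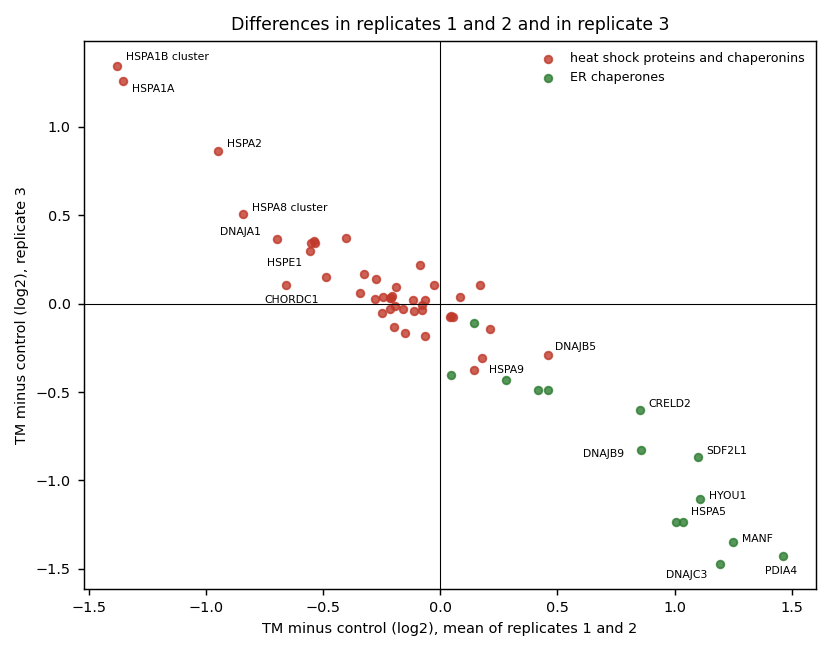
TM minus control on the log2 scale in replicates 1 and 2 (mean, x axis) and in replicate 3 (y axis) for the 44 members (red) and 14 ER chaperones (green). Points of large change lie in the upper left and lower right corners, where the sign in replicate 3 is opposite, with HSPA1A at 1.26 and PDIA4 at -1.43 in replicate 3.

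The members whose TM and control arrays did not overlap were others than the 9 that fell. Over all 6 arrays, 9 members were lower without overlap (20.5%), beside 7.49% of all clusters, and 2 were higher, beside 20.5% of all clusters. The lower ones were HSPA4, HSPA14, STIP1, DNAJA2, BAG2, BAG4, CCT3, CCT4 and CCT5, and the higher ones were HSPA6 and DNAJB2. Their log2 fold changes over 6 arrays were small, and none passed the adjusted threshold. The smallest unadjusted p of these was that of HSPA14 (0.0104).

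Heat shock elements were counted in the RefSeq windows of 250 bases before to 50 bases after the annotated starts. Windows were given for 42 of the 46 genes, with more than 1 window for 14, and none for HSPA14, HSF1, FKBP4 and BAG4. An element of 2 units, on either strand, was found for 23 of the 42, beside 16.2% of all 27305 genes with a window. A run of 3 units, which by its letters also holds elements of 2 units, was found for 8 of the 42, beside 0.608% of all genes. These 8 were HSPA8, HSPA6, HSP90AA1, HSP90AB1, CHORDC1, HSPD1, DNAJA1 and DNAJB6. In DNAJA1 the run lay after the annotated start, and in the other 7 before it.

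The elements were found both in genes that fell in replicates 1 and 2 and in genes that did not pass. A 2-unit element was found for 7 of the 9 that fell, all but HSPA2 and HSPE1, and for 16 of 31 measured members that did not. Runs of 3 units were found for 3 of the 9 and for 5 of the 31. HSPA6 and DNAJB6, whose runs are printed above, had log2 fold changes of 0.17 and -0.12, and the HSPA1A element of 2 units stood in the gene with the lowest change among single-symbol members. No run of 3 units was found for the 14 ER chaperones, beside 0.608% of all genes. An element of 2 units was found for 2 of them, CANX and SIL1, beside 16.2% of all genes.

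**Figure D5:**
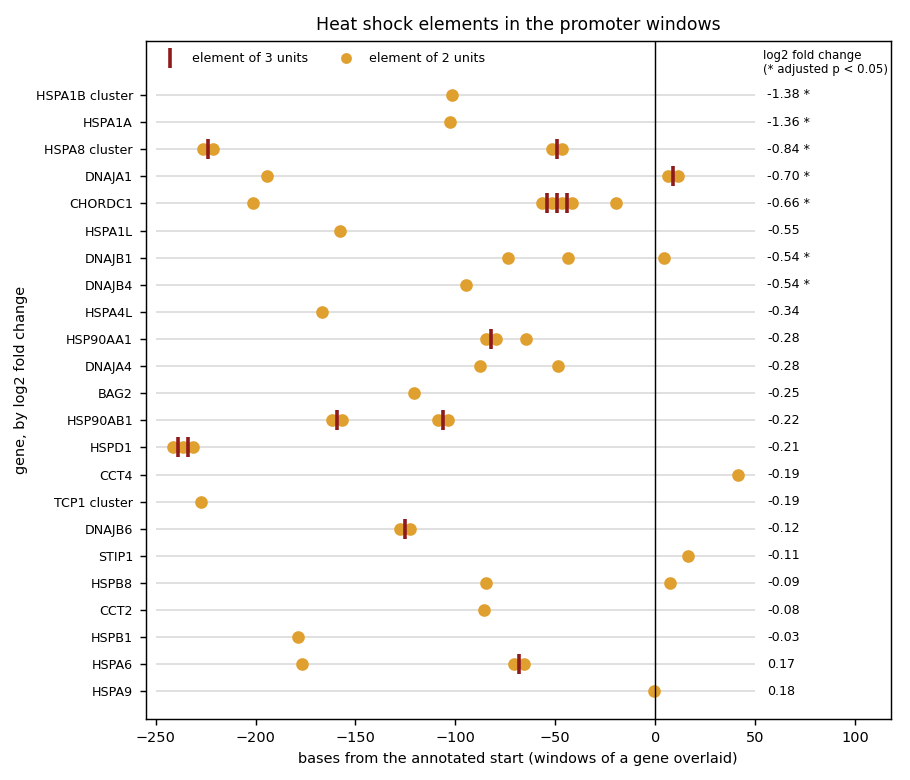
Position of heat shock elements relative to the annotated start (x axis, bases) for the 23 genes with a match, ordered down the page by log2 fold change in replicates 1 and 2, which is printed at the right with a star for an adjusted p under 0.05. Runs of 3 units (bars) occur from the HSPA8 cluster at -0.84 to HSPA6 at 0.17.

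The ER elements were found for some of the ER chaperones and for no member. ER stress response element I (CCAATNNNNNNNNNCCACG, either strand) was found for 0 of the 42 members, for 5 of 14 ER chaperones and for 0.0916% of all genes. Element II (either strand) was found for 0 of the 42, for 2 of the 14 and for 0.0696% of all genes. Both elements are rare among all genes, so 0 of 42 does not set the members apart from them. The plain CCAAT box, which is part of element I, was found for 16 of the 42, for all 14 ER chaperones and for 39.7% of all genes. An ATF4 composite element (TGATGNAAT, either strand) was found for DNAJA4 alone among the members, beside 1.22% of all genes. Each match is a description of letters, and a gene with no match lacks these letters in this window only.

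Among clusters with 1 symbol, the 3 closest in pattern to HSPA1A over the 6 arrays were LOC100288637, PLXNA1 and GIGYF2. LOC100288637 had 7.74, 7.71 and 8.09 in TM arrays, against 8.11, 8.09 and 7.71 in control arrays. Likeness was measured by Pearson's r over the 6 arrays, which is set here by 2 sets of 3 arrays.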

How the data were processed

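RNA of 6 SCC25 cultures was measured on the GeneChip HTA 2.0 array, with 3 TM and 3 control samples that the series' design text calls independent biological replicates. The authors deposited log2 expression values, summarised per transcript cluster and normalized, with MAS5 named in the submitters' processing notes. How background was corrected, which probe set version and which genome build were used is, for these data, not given in the sources used here. Values were used as deposited, with symbols from the array's annotation. The number of arrays limits the precision.

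TM was compared with control over all 67528 clusters by limma 3.58.1 in R 4.3.3 (lmFit and eBayes, two-sided, Benjamini-Hochberg adjustment, threshold 0.05), first with all 6 arrays and then with replicates 1 and 2. A p under 0.05 before adjustment, together with a 1.2-fold change or more, was counted too, as the study's text gives these thresholds. Only members are described. The step was run on simulated data of 3 arrays per group, with a common spread and no array at the other group's level. The fit of 2 arrays per group was not simulated, so this run does not bear on its calls. Members, lists and the comparison in replicates 1 and 2 were chosen with earlier results of these data known. No p was computed over a list. Genes given with array values are HSPA1A, HSPA8, HSP90AA1, DNAJB1 and HSF1, members past the adjusted threshold, the member of each role with the smallest p in each direction in each comparison, HSPA5, which shows how the arrays lie, and the closest patterns to HSPA1A. Of further lists, the 2 genes with the smallest p in each direction are named, and so are CCT6A and CCT6B. Other members are given by their log2 fold change. Lists were HSF family and targets, co-chaperones, TRiC partners and prefoldin, mitochondrial proteostasis, ER chaperones, and markers of squamous epithelium, fibroblasts, leukocytes and endothelium.

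Deviations of same-numbered arrays from their group means correlated at -0.18, -0.31 and -0.53 over clusters. The group means include the replicate 3 arrays, which stood apart, so these values cannot decide whether equal numbers pair the samples. The main comparisons were not paired. The alternatives were quantile normalization, array centring, the upper part of clusters by mean, eBayes with trend and robust options, averaging the clusters of each gene, a replicate block, a fold change of 1.5 and leaving out each array. Promoter windows came from RefSeq, GRCh38.p14, and the plots came from matplotlib 3.10.9 under Python 3.11.15.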

Additional observations from a re-analysis of the deposited data

How the results depend on the processing

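Over all 6 arrays, no member passed the adjusted threshold under any alternative run. At p under 0.05 and 1.2-fold without adjustment, the 1 member of all 6 arrays became 4 with array centring, 0 with the replicate block, 0 at a fold change of 1.5, and 0 to 12 when 1 array was left out (12 without TM 3, 6 without control 3). Over all clusters this count moved too, from 3996 to 4266 with centring, 3557 with the block and 137 at a fold of 1.5. It was 7025 without TM 3 and 5055 without control 3. In replicates 1 and 2, the 9 members past the adjusted threshold became 6 with quantile normalization (without CHORDC1, DNAJA1 and DNAJB1), 14 with centring, 21 among clusters of higher mean, 20 with trend and robust options, 10 with the mean of a gene's clusters, and 0 to 2 when 1 array was left out. Over all clusters the calls moved too, to 560, 1872, 5616 (of 33764), 4571, 804 (of 66212) and 0 to 129, against 825 as deposited. With the replicate block 2 members remained, HSPA1A and the HSPA1B cluster, and 28 clusters in all. The HSPA1B cluster also carries HSPA1A, so these 2 are not independent. Leaving 1 array out of replicates 1 and 2 leaves 1 array in a group, and the log2 fold changes of the 9 then lay between -1.43 and -0.48. The 17 members at p and fold 1.2 in replicates 1 and 2 became 6 at a fold of 1.5, while over all clusters 9828 became 1270. The cause of these moves was not tested. Some of these runs also held fewer arrays or fewer clusters. The members' median log2 fold change stayed below 0, between -0.20 and -0.09 over all 6 arrays and between -0.25 and -0.15 in replicates 1 and 2, and so did all 9 members under every alternative.

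Signs turned only for named genes with values near 0. Over all 6 arrays HSPB1 (0.02 as deposited) was -0.0556 with centring and -0.0152 to 0.0513 with 1 array left out, below 0 without TM 3 or control 2. HSPA9 (0.01) was -0.0568 with centring and -0.047 to 0.1008 with 1 array left out, below 0 without TM 1, TM 2, control 1 or control 2. BAG1 (0.01) was -0.058 with quantile normalization, -0.0621 with centring and -0.0189 to 0.0374 with 1 array left out, below 0 without TM 1 or control 2. In replicates 1 and 2 HSPB1 (-0.03) was 0.0328 with quantile normalization and -0.0866 to 0.0281 with 1 array left out, above 0 without control 1. The values hold no detection calls, so low signal could not be set against background.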
